A study of Homo sapiens with 4 samples.

Results

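Receptors and SMAD proteins of the BMP and TGF-beta families were examined as a set of 10 genes: ENG, ACVRL1, BMPR1A, BMPR2, TGFBR1, TGFBR2, SMAD1, SMAD5, SMAD6 and SMAD7. They were chosen by gene symbol, and each matched 1 row of the 28285 gene rows in every library. RNA sequencing had been done on cells differentiated from the established human embryonic stem line H1, with an eGFP reporter knocked into GATA2, a transcription factor gene of blood stem and progenitor cells. The GFP-positive group had eGFP, CD34 and CD31 and lacked CD43, and was labelled as hemogenic endothelium, the endothelium that gives rise to blood cells. The GFP-negative group had the same surface sort without eGFP and was labelled as endothelial cells, although the source name of all 4 samples is hemogenic endothelium and all titles carry its initials. Cre is in every title with no stated role, and there were 2 libraries of each group. The labels name a single knock-in genotype, do not say how many clones were used, and do not say whether replicates were separate cultures, so every p-value here reflects the spread among these 4 libraries and that spread may be technical.

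Ligands of the TGF-beta superfamily bring together type II receptor kinases and type I receptor kinases, and the type II kinase switches on the type I kinase. The activated type I receptor phosphorylates receptor-regulated SMADs, which enter the nucleus with SMAD4; SMAD1, SMAD5 and SMAD9 carry BMP signals, and SMAD2 and SMAD3 carry TGF-beta and activin signals. SMAD6 and SMAD7 are inhibitory SMADs that are themselves induced by the pathway. In endothelium, ACVRL1 (also called ALK1) with BMPR2 and the co-receptor endoglin forms the receptor for circulating BMP9 and BMP10, and loss-of-function variants of ENG and ACVRL1 cause hereditary hemorrhagic telangiectasia, a disorder of malformed vessels.

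Of these 10 genes, the receptors whose libraries separated the groups were lower in GFP-positive cells, and the SMADs that did so were higher. The TPM of ENG, ACVRL1, BMPR2 and TGFBR2 was lower in both GFP-positive libraries than in either GFP-negative library, at 0.463, 0.588, 0.454 and 0.674 times the GFP-negative mean. SMAD1, SMAD5 and SMAD6 were higher in both GFP-positive libraries than in either GFP-negative library, at 1.31, 1.41 and 1.38 times. BMPR1A, TGFBR1 and SMAD7 overlapped between the groups. None of these differences passed a Benjamini-Hochberg adjusted p of 0.05 in limma, a linear model fitted here to log2(TPM + 1) over the 15425 genes that reached 1 TPM in 2 or more libraries.

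All 10 genes passed that filter, and 0 rose, 0 fell and 10 did not pass, where 0.447% of all genes tested passed (0.123% higher and 0.324% lower). That split, 19 higher and 50 lower, became 17 and 1 without GFP-negative replicate 1 and 36 and 29 without GFP-negative replicate 2. At an unadjusted p under 0.05 limma listed 5 of the 10 (ENG, ACVRL1, BMPR2, TGFBR2 and SMAD6), against 14.1% of all genes. The libraries of the groups did not overlap for 7 of the 10, against 44.3% of all genes. Of these, 3 were higher in GFP-positive cells (22.8% of all genes) and 4 were lower (21.5%). A log2 fold change below 0 was found for 6 of the 10, against 48.2% of all genes. The median log2 fold change was -0.10 over the 10 genes and 0.02 over all genes tested.

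**Figure D1:**
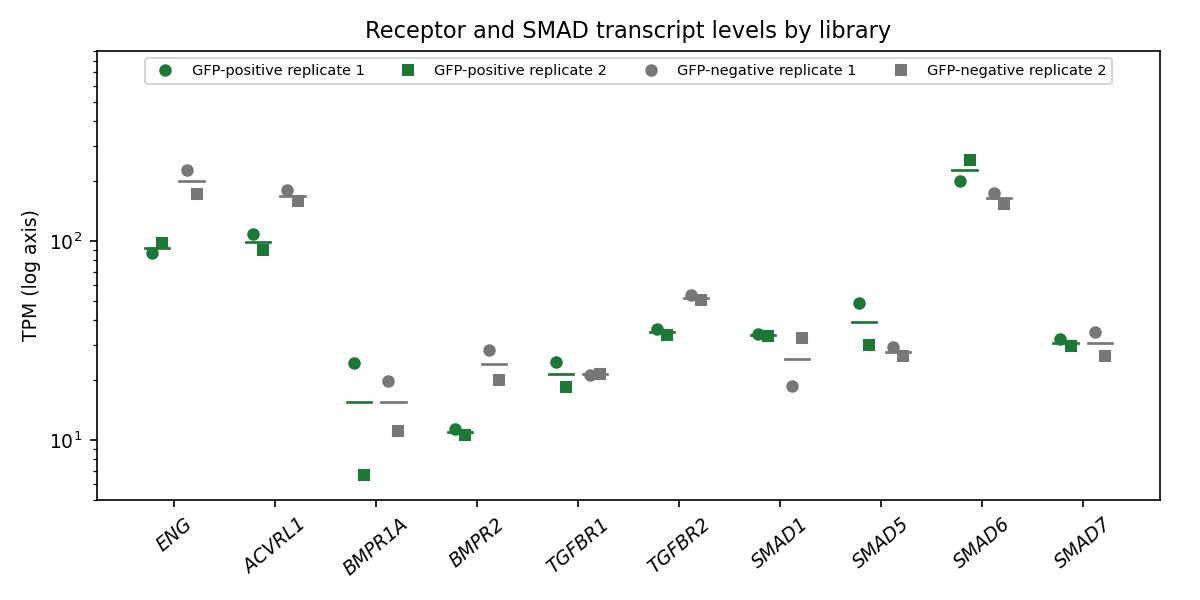
Level of each gene in TPM on a log axis, with 1 point per library (circle replicate 1, square replicate 2; GFP-positive in green on the left, GFP-negative in grey on the right) and a line at the mean of the 2 libraries. ENG and ACVRL1 are at 86.6 to 108 TPM in GFP-positive libraries and at 158 to 227 TPM in GFP-negative libraries, while SMAD6 is at 200.3 and 254 against 175 and 154 TPM.

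The labels were first checked against marker genes. GATA2, whose locus carries the reporter and whose level is therefore tied to the sort, had 302 and 385 TPM in GFP-positive libraries and 80.2 and 87.3 TPM in GFP-negative libraries. The summed level of 13 endothelial markers was 4107 and 4353 TPM in GFP-positive libraries and 7281 and 6761 TPM in GFP-negative libraries. All 13 were lower in both GFP-positive libraries than in either GFP-negative library, as were 21.5% of all genes. CD34 was the only 1 of them that passed (limma adjusted p = 0.0316), where 0.324% of all genes passed as lower. CDH5, the gene of VE-cadherin, stood at 329 and 314 TPM against 767 and 623 TPM, and CLDN5, an endothelial tight junction gene, at 1.09 and 0 TPM against 7.46 and 5.36 TPM. A list of 12 blood markers summed to 424 and 296 TPM in GFP-positive libraries and 79.7 and 74.3 TPM in GFP-negative libraries, with MPO listed at 0 in 3 libraries and PTPRC, the gene of CD45, at 0.31 to 2.64 TPM in all. Of the 10 tested, the fetal globin gene HBG2 was the 1 that passed, where 0.123% of all genes passed as higher. HBG2 had 90.6 and 45.7 TPM against 2.27 and 2.11 TPM. SPN, the gene of the CD43 that the sort removed, had 16.9 and 10.2 TPM against 9.66 and 11.1 TPM. A list of 11 mesenchymal and mural markers summed to 3094 and 2997 TPM against 2029 and 2187 TPM, mostly from RGS5, TAGLN, COL1A1 and COL1A2, and none passed. A list of 6 pluripotency markers summed to 615 and 499.5 TPM against 419 and 377 TPM, nearly all from LIN28A and DNMT3B, with SOX2 listed at 0 in 3 libraries. POU5F1, a core pluripotency factor, lay the other way, at 0.93 and 0.03 TPM against 9.68 and 5.88 TPM (limma adjusted p = 0.131), and the median log2 fold change of the 4 tested was 0.02. The summed levels of these lists differed between the same groups that are compared below. The part of the lists in the levels of the receptors and SMADs was not tested. In sorted bulk cells, fewer cells of a type and less RNA per cell cannot be told apart.

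ENG encodes endoglin, a co-receptor that presents BMP9 and BMP10 to ACVRL1 and marks endothelium and early blood progenitors. It had 86.6 and 97.6 TPM in GFP-positive libraries and 227 and 171 TPM in GFP-negative libraries. Every GFP-positive value lay below every GFP-negative value, and the gap between the groups was wider than the gap within either. The means were 92.1 ± 7.79 TPM and 199 ± 39.0 TPM (SD, n = 2 each), a log2 fold change of -1.09 ± 0.19 (SE; 95% interval -1.56 to -0.63; limma adjusted p = 0.0848). ENG ranked at the 85.3rd percentile of tested genes in GFP-positive cells and at the 94.2nd in GFP-negative cells. Of the 10 genes it had the smallest p. Its log2 fold change ran from -1.29 to -0.89 with each library left out in turn.

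The receptors were also set against CDH5, a comparison chosen after the values were seen. ENG TPM divided by CDH5 TPM was 0.263 and 0.311 in GFP-positive libraries and 0.295 and 0.275 in GFP-negative libraries, so the ratio overlapped. ENG divided by the summed TPM of the 13 endothelial markers did not overlap, at 0.021 and 0.022 against 0.031 and 0.025, so what the ratio shows depends on the denominator. BMPR2 divided by CDH5 overlapped too, at 0.035 and 0.034 against 0.037 and 0.032. The ratio for ACVRL1 was 0.329 and 0.287 against 0.234 and 0.253, and that for TGFBR2 was 0.110 and 0.107 against 0.069 and 0.081. SMAD6 divided by CDH5 stood at 0.609 and 0.808 against 0.228 and 0.247. CDH5 itself stood at 0.463 times its GFP-negative mean. A gene with equal TPM in all libraries would thus have a higher ratio in GFP-positive libraries. ACVRL1 and TGFBR2 had higher ratios there although their TPM was lower. Only ENG was set against both denominators, so the other ratios hold for CDH5 alone and may differ with another denominator. These ratios are a description and were not tested.

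The promoter of ENG is shown because ENG had the smallest p of the set. ENG (ENSG00000106991) lies on chromosome 9, at 127815012 to 127854756 on the minus strand in GENCODE 29 (GRCh38). The RefSeq window on GRCh38.p14, chr9:127854609-127854908, minus strand, runs from 250 bases before an annotated start to 50 bases after it, and is printed 5′ to 3′ with GGAA, the core of ETS factor sites, or its reverse complement in capitals.
ENG: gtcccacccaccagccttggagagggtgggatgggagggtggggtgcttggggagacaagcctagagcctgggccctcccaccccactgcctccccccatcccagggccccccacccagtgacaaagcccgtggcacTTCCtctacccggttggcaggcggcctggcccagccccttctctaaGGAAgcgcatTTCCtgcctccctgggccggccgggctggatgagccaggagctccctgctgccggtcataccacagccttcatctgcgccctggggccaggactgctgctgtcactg
The core occurs 3 times, with its first base 113, 67 and 57 bases before the start, and 95.5% of all 34796 distinct windows of this length hold it at least once on either strand. GATA or its reverse complement does not occur in this window and occurs in 49.8% of all windows. ETS proteins act on many endothelial genes, and a match of letters does not show that a factor binds there. A gene on the opposite strand, AL162586.1, shares 313 exon bases with ENG in the annotation. The sources used here do not state whether reads were counted by strand, so reads of such a pair cannot be told apart.

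Type I receptors came next. ACVRL1, the endothelial type I receptor for BMP9 and BMP10 (ENSG00000139567; chromosome 12, 51906908 to 51923361, plus strand, GENCODE 29 on GRCh38), had 108 and 90.4 TPM in GFP-positive libraries and 179.9 and 158 TPM in GFP-negative libraries. The groups did not overlap. Means were 99.2 ± 12.5 TPM against 169 ± 15.7 TPM (SD, n = 2 each), with a log2 fold change of -0.76 ± 0.17 (SE; 95% interval -1.18 to -0.35; limma adjusted p = 0.137). It ran from -0.89 to -0.64 with each library left out.

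BMPR1A (also called ALK3), a type I receptor for BMP2 and BMP4 used by many tissues, had 24.4 and 6.68 TPM in GFP-positive libraries and 19.9 and 11.1 TPM in GFP-negative libraries. Replicate 1 was the higher library in both groups, and the ratio of the higher to the lower library was 3.65 among GFP-positive and 1.79 among GFP-negative libraries. For genes with a mean of 10 to 50 TPM the median of that ratio was 1.285 and 1.246. The log2 fold change was -0.19 with a 95% interval from -1.71 to 1.34 (limma adjusted p = 0.938), the widest interval of the set, and it came to 0.68 with GFP-positive replicate 2 left out and to -1.05 with replicate 1 of that group left out. GENCODE 29 also lists sequences named BMPR1AP1 and BMPR1AP2 for this gene's pseudogenes, which have no row here, so the value is uncertain to the extent that reads were shared with them.

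TGFBR1 (also called ALK5), the type I receptor for TGF-beta itself, had 24.6 and 18.4 TPM in GFP-positive libraries and 21.3 and 21.5 TPM in GFP-negative libraries. The GFP-negative values lay between the GFP-positive ones. The log2 fold change was -0.01 ± 0.28 (SE; 95% interval -0.70 to 0.69; limma adjusted p = 0.995), an interval that leaves room for a change in either direction.

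BMPR2 and TGFBR2 are the type II kinases of the set. BMPR2, the type II receptor for BMPs whose loss-of-function variants cause heritable pulmonary arterial hypertension, had 11.4 and 10.6 TPM in GFP-positive libraries and 28.2 and 20.1 TPM in GFP-negative libraries. The GFP-positive libraries were close to each other and below both GFP-negative libraries. Means were 10.98 ± 0.552 TPM against 24.2 ± 5.70 TPM (SD, n = 2 each), with a log2 fold change of -1.05 ± 0.32 (SE; 95% interval -1.84 to -0.27; limma adjusted p = 0.236). TGFBR2, the ligand-binding receptor for TGF-beta, had 36.1 and 33.6 TPM in GFP-positive libraries and 53.2 and 50.3 TPM in GFP-negative libraries. Replicates of TGFBR2 lay within a factor of 1.075 and 1.057 of each other, and the groups did not overlap. Its log2 fold change was -0.56 ± 0.20 (SE; 95% interval -1.05 to -0.06; limma adjusted p = 0.306).

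**Figure D2:**
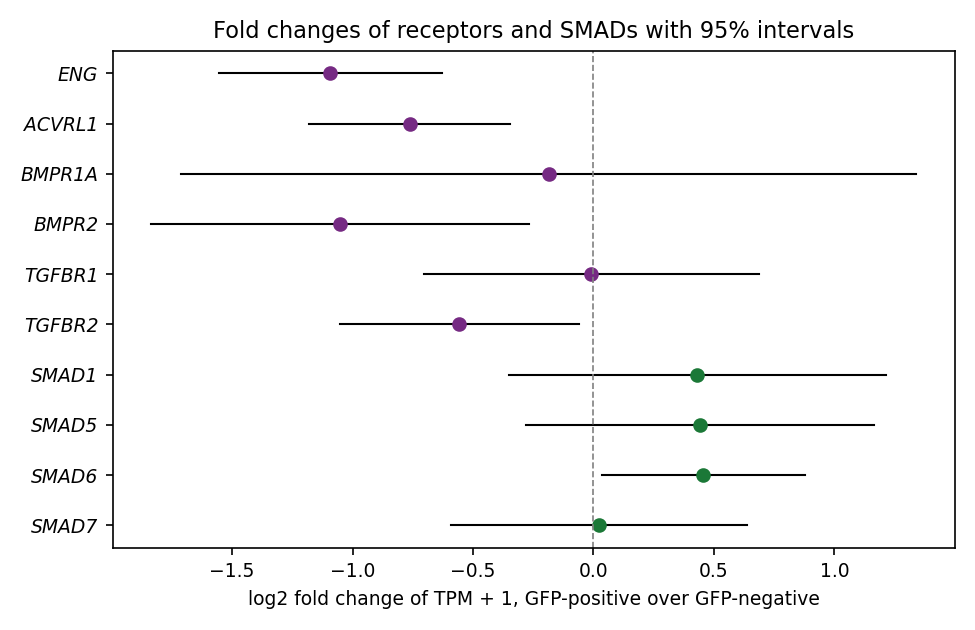
Log2 fold change of TPM + 1 (x axis, GFP-positive over GFP-negative) for each gene, with its 95% interval from limma over 4 libraries; the dashed line is at 0, and points are purple below 0 and green above it. The intervals of ENG, ACVRL1, BMPR2 and TGFBR2 lie below 0 and that of SMAD6 above it, before any adjustment for the number of genes, and BMPR1A has the widest, from -1.71 to 1.34.

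Because TPM is corrected for transcript length, levels of different receptors can be summed within a library. Over the 7 type I receptor genes the sum was 195 and 173 TPM in GFP-positive libraries and 289 and 247 TPM in GFP-negative libraries. ACVRL1 was the most abundant type I receptor transcript in each library and made up 55.5% and 52.2% of the sum in GFP-positive libraries, against 62.2% and 63.9% in GFP-negative libraries. TGFBR1 made up 12.6% and 10.6% against 7.37% and 8.71%. ACVRL1 thus stood at 4.40 and 4.91 times TGFBR1 in GFP-positive libraries and at 8.44 and 7.34 times in GFP-negative libraries. ACVR1B, an activin type I receptor, took 14.7% and 23.3% against 16.4% and 14.0%, and ACVR1C was listed at 0 in every library.

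Over the 5 type II receptor genes the sum was 93.2 and 72.7 TPM in GFP-positive libraries and 109 and 97.3 TPM in GFP-negative libraries. TGFBR2 was the most abundant in all 4, with 38.8% and 46.3% of the sum against 48.8% and 51.7%. BMPR2 made up 12.2% and 14.6% against 25.9% and 20.7%. AMHR2, the receptor for anti-Müllerian hormone, took 26.4% and 16.5% against 4.77% and 2.38%. Its TPM was 24.6 and 11.96 in GFP-positive libraries and 5.20 and 2.32 in GFP-negative libraries (log2 fold change 2.0 with an SE of 0.53, limma adjusted p = 0.188). For each of these shares the groups did not overlap except for ACVR1B, and shares were not tested.

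**Figure D3:**
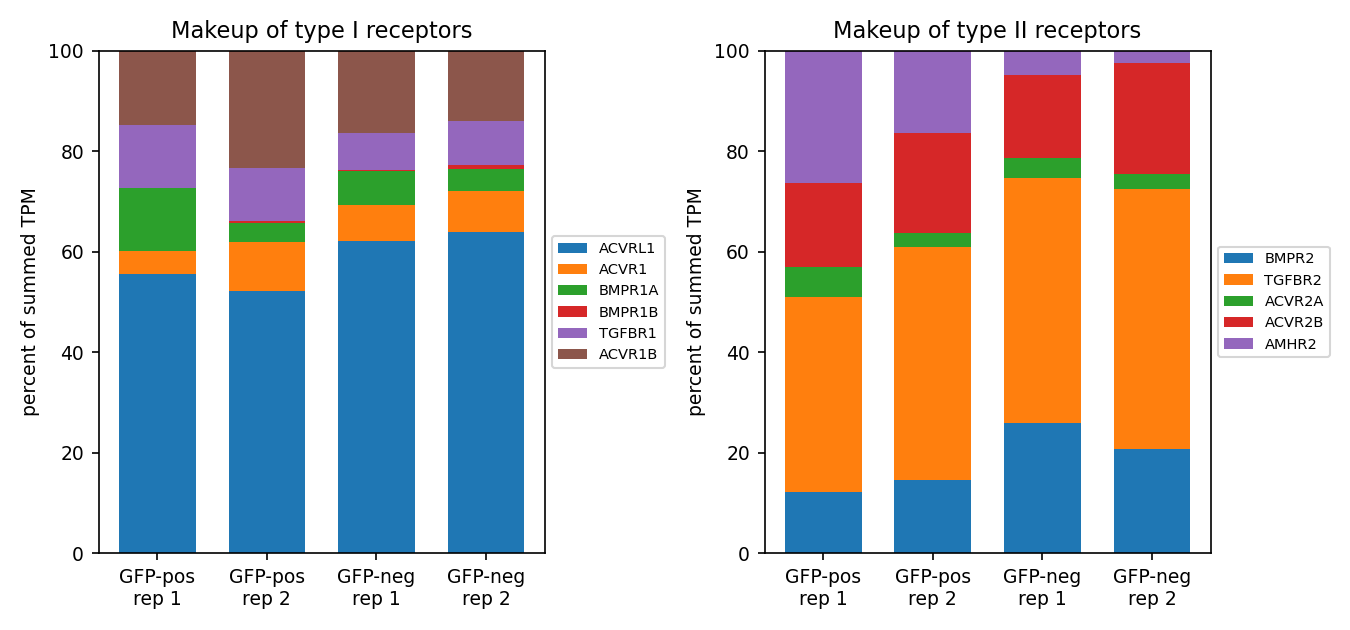
Share of the summed TPM of the type I receptors (left) and type II receptors (right) taken by each gene, in percent, with 1 bar per library and GFP-positive libraries on the left of each panel. ACVRL1 takes more than any other type I receptor in each bar, and the AMHR2 share is 26.4% and 16.5% in GFP-positive bars against 4.77% and 2.38% in GFP-negative bars.

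SMAD1 and SMAD5, which transduce BMP signals, had fold changes above 0, each resting largely on 1 library. SMAD1 had 34.1 and 33.2 TPM in GFP-positive libraries and 18.6 and 32.6 TPM in GFP-negative libraries. GFP-negative replicate 2 was close to the GFP-positive libraries and replicate 1 was well below them. The log2 fold change of 0.43 ± 0.32 (SE; 95% interval -0.35 to 1.21; limma adjusted p = 0.624) became 0.04 with GFP-negative replicate 1 left out and 0.82 with GFP-negative replicate 2 left out. SMAD5 had 48.5 and 30.0 TPM in GFP-positive libraries and 29.2 and 26.5 TPM in GFP-negative libraries. Here GFP-positive replicate 1 stood apart, and leaving it out took the log2 fold change of 0.44 ± 0.30 (SE; 95% interval -0.28 to 1.17; limma adjusted p = 0.576) to 0.11, while leaving out the other GFP-positive library gave 0.78. Antisense genes overlap exons of both: SMAD1-AS1 shares 376 bases with SMAD1 and has no row here, and SMAD5-AS1 shares 610 bases with SMAD5 and is listed at 0 in all 4 libraries.

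The other SMAD genes give the frame for these values. SMAD9, the third BMP SMAD, stood at 1.29 and 1.44 TPM against 2.84 and 1.67 TPM, so SMAD1 and SMAD5 made up nearly all BMP SMAD transcript. SMAD1, SMAD5 and SMAD9 together were 1.07 and 1.00 times the sum of SMAD2 and SMAD3 in GFP-positive libraries and 0.663 and 0.839 times in GFP-negative libraries. SMAD4, the common partner, had 73.8 and 74.9 TPM against 74.3 and 80.6 TPM, with a log2 fold change of -0.06 ± 0.17 (SE; 95% interval -0.47 to 0.36; limma adjusted p = 0.931).

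SMAD6, an inhibitor that acts mainly on BMP signals and is strongly expressed in endothelium, was the most abundant gene of the set in GFP-positive cells. It had 200.3 and 254 TPM in GFP-positive libraries and 175 and 154 TPM in GFP-negative libraries. The groups did not overlap, but the GFP-positive libraries differed by more than the gap between the groups. Means were 227 ± 38.0 TPM against 164 ± 14.8 TPM (SD, n = 2 each), with a log2 fold change of 0.46 ± 0.17 (SE; 95% interval 0.03 to 0.88; limma adjusted p = 0.324), and 0.29 to 0.63 with each library left out. SMAD6 ranked at the 95.1st percentile of tested genes in GFP-positive cells and at the 92.7th in GFP-negative cells.

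SMAD7, which inhibits TGF-beta as well as BMP signals, had 32.0 and 29.8 TPM in GFP-positive libraries and 34.8 and 26.5 TPM in GFP-negative libraries. Both GFP-positive values lay between the GFP-negative ones. Its log2 fold change was 0.02 ± 0.25 (SE; 95% interval -0.59 to 0.64; limma adjusted p = 0.985), and -0.01 with upper quartile scaling or median centring. SMAD6 was thus 6.26 and 8.52 times SMAD7 in GFP-positive libraries and 5.02 and 5.81 times in GFP-negative libraries. SMAD6 and SMAD7 together were 2.77 and 4.39 times the sum of the BMP SMADs SMAD1, SMAD5 and SMAD9 in GFP-positive libraries. In GFP-negative libraries they were 4.14 and 2.97 times that sum, with full overlap between the groups.

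Promoter windows of the inhibitory pair are shown because SMAD proteins bind the box GTCT (AGAC on the other strand) and a pair of boxes can join as the palindrome GTCTAGAC. The SMAD6 gene (ENSG00000137834) lies on chromosome 15, at 66702228 to 66782848 on the plus strand, and SMAD7 (ENSG00000101665) on chromosome 18, at 48919853 to 48952052 on the minus strand, both in GENCODE 29 on GRCh38. The RefSeq windows on GRCh38.p14 are chr15:66701986-66702285, plus strand, for SMAD6 and chr18:48950916-48951215, minus strand, for SMAD7, which has 3 windows, of which this one lies nearest to the gene's start. They are printed 5′ to 3′, with SMAD boxes in capitals; GGCGCC, a GC-rich element bound by BMP SMADs, was searched for as well and is in neither.
SMAD6: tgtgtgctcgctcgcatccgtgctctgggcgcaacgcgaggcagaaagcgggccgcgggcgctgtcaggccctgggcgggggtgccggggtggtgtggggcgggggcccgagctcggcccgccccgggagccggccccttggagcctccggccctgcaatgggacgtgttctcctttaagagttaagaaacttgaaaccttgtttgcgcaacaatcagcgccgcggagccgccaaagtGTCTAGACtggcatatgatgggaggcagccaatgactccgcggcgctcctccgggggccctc
SMAD7: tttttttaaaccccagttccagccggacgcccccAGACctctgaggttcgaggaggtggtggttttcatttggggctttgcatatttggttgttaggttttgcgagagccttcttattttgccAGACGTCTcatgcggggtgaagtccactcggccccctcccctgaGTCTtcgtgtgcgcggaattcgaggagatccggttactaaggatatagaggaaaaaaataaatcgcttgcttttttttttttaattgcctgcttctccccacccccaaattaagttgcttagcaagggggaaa
The SMAD6 window held the palindrome once, with its first base 12 bases before the annotated start, and 0.193% of the 34796 windows held it. It was the only one of the 23 windows found for 9 of the 10 genes to hold it. The SMAD7 windows do not reach the GENCODE start of that gene at 48952052, so the sequence there was not searched. Of single boxes, which overlap the palindrome and occur in 84.0% of all windows, SMAD6 had 2 and the SMAD7 window had 4. Among the windows of the receptors, that of BMPR2 held 6 boxes and 1 GGCGCC, and a TGFBR1 window held 2 GGCGCC and 0 boxes. Windows of SMAD1 and SMAD5 held GGCGCC as well, and it occurs in 19.2% of all windows. A match describes letters, not binding, and its absence from a window says nothing of the factor.

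Around the receptors and SMADs, 95 other genes of the pathway were examined, from ligands to targets. Of these, 70 passed the filter, 25 did not, and of the 70 tested 0 rose, 2 fell and 68 did not pass (0.447% of all genes passed). An unadjusted p under 0.05 was found for 18 of the 70, against 14.1% of all genes. The median log2 fold change was -0.04, close to the 0.02 of all genes, with 31 genes above 0 and 39 below (48.2% of all genes lay below 0). The 2 that fell were ID1 and ID3, inhibitors of DNA binding whose genes BMP signals induce. They belong to 8 target genes tested, of which 4 were above 0 and 4 below. An unadjusted p under 0.05 was found for 3 of these 8. ID1 had 179 and 195 TPM in GFP-positive libraries and 410.1 and 422 TPM in GFP-negative libraries (log2 fold change -1.15 with an SE of 0.13, limma adjusted p = 0.0413). ID3 had 247 and 289.7 TPM against 675 and 613 TPM (log2 fold change -1.26 with an SE of 0.14, limma adjusted p = 0.0403). Neither passed with a pseudocount of 0.1, with no filter on low values or with no variance trend. With 1 library left out, ID1 passed in no limma fit (adjusted p from 0.0597 to 0.121), and ID3 (0.0434 to 0.117) missed when replicate 1 of either group was the one left out. ID2, of the same family, had 410.05 and 418 TPM against 268 and 216 TPM (0.78 ± 0.15; limma adjusted p = 0.107).

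Among ligands, BMP10 and BMP4 lay at the 2 ends of the pathway list. BMP10, a ligand of ACVRL1 that is known mainly from the heart, had 38.4 and 49.97 TPM in GFP-positive libraries and 6.53 and 10.1 TPM in GFP-negative libraries (log2 fold change 2.29 with an SE of 0.33, limma adjusted p = 0.0599); among genes with a mean of at least 5 TPM it passed (adjusted p = 0.0311). BMP10 did not pass with a pseudocount of 0.1, with no filter on low values or with no variance trend. The log2 fold changes of BMP10 and ACVRL1 thus had opposite signs, and neither gene passed in the limma fit over all genes tested. BMP4, the ligand used to induce mesoderm and blood from stem cells, had 8.41 and 10.3 TPM in GFP-positive libraries and 26.9 and 70.8 TPM in GFP-negative libraries (log2 fold change -2.12 with an SE of 0.48, limma adjusted p = 0.140). GDF2, the gene of BMP9, was listed at 0 in every library. TGFB1 was the most abundant ligand, with 399 and 462 TPM against 391 and 394 TPM, and AMH, the ligand of AMHR2, had 22.6 and 46.7 TPM against 30.9 and 26.9 TPM. GDF11, an activin-like ligand, had 29.1 and 21.1 TPM against 12.3 and 13.0 TPM (limma adjusted p = 0.273). Of 15 ligands tested, 0 passed in limma and 4 had an unadjusted p under 0.05, against 14.1% of all genes. Of these ligands, 9 were above 0 and 6 below, where 48.2% of all genes lay below 0.

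Among the other receptors and co-receptors tested, 0 passed in limma. An unadjusted p under 0.05 was found for 1 type II receptor and 2 co-receptors. Over all genes, 14.1% had an unadjusted p under 0.05 and 48.2% lay below 0. Of the 2 other type I receptors tested, ACVR1, a BMP receptor, had 8.95 and 16.6 TPM in GFP-positive libraries and 20.3 and 20.1 TPM in GFP-negative libraries (limma adjusted p = 0.493), and ACVR1B had 28.6 and 40.3 TPM against 47.5 and 34.7 TPM. ACVR2B, an activin type II receptor, had 15.6 and 14.4 TPM against 18.1 and 21.6 TPM (limma adjusted p = 0.641). Of the 3 other type II receptors tested, 2 were below 0 and AMHR2, given above, was above it. Of 5 co-receptors tested, 4 were below 0. RGMB, a BMP co-receptor, had 2.92 and 3.23 TPM against 8.36 and 13.0 TPM (limma adjusted p = 0.223). BAMBI, a pseudoreceptor without a kinase that dampens signalling, was above 0, with 124 and 95.7 TPM against 94.4 and 86.1 TPM (limma adjusted p = 0.602), and CD109, a TGF-beta co-receptor, had 33.8 and 25.6 TPM against 36.7 and 31.7 TPM.

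Secreted antagonists and modulators went both ways, with 8 above 0 and 7 below among 15 tested (48.2% of all genes lay below 0). Of these 15, 0 passed in limma and 4 had an unadjusted p under 0.05, against 14.1% of all genes. SOST, the gene of sclerostin, an antagonist related to BMP inhibitors and best known for blocking Wnt signals in bone, had 329.6 and 268 TPM in GFP-positive libraries and 710.2 and 555 TPM in GFP-negative libraries (log2 fold change -1.08 with an SE of 0.18, limma adjusted p = 0.0756), and it too passed among genes with a mean of at least 5 TPM (adjusted p = 0.0462). SOST did not pass with a pseudocount of 0.1, with no filter on low values or with no variance trend. The antagonist genes NOG and FST were low. NOG had 1.01 and 6.09 TPM against 9.06 and 8.04 TPM, and FST had 0 and 5.37 TPM against 6.86 and 9.33 TPM. LTBP1, which holds latent TGF-beta in the matrix, had 42.5 and 41.5 TPM against 16.7 and 28.4 TPM (limma adjusted p = 0.273), and its relative LTBP2 had 4.43 and 7.25 TPM against 9.98 and 24.0 TPM (limma adjusted p = 0.341). FSTL1, a secreted follistatin-like protein, was the most abundant of this role, with 456 and 573 TPM against 571 and 899 TPM.

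Inside the cell, 18 regulators were tested, with 7 above 0 and 11 below (48.2% of all genes lay below 0). Of these 18, 0 passed in limma and 4 had an unadjusted p under 0.05, against 14.1% of all genes. FKBP1A, which binds type I receptors and keeps them inactive without ligand, had 578 and 529 TPM in GFP-positive libraries and 849 and 951 TPM in GFP-negative libraries (log2 fold change -0.70 with an SE of 0.13, limma adjusted p = 0.0919). STRAP, a partner of TGF-beta receptors and SMAD7, had 272 and 226 TPM against 233 and 207 TPM. SMAD2 is not among these 18 but belongs to the 4 other SMADs tested, of which 1 was above 0 and 3 below. It had 62.5 and 40.2 TPM against 58.2 and 54.3 TPM.

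**Figure D4:**
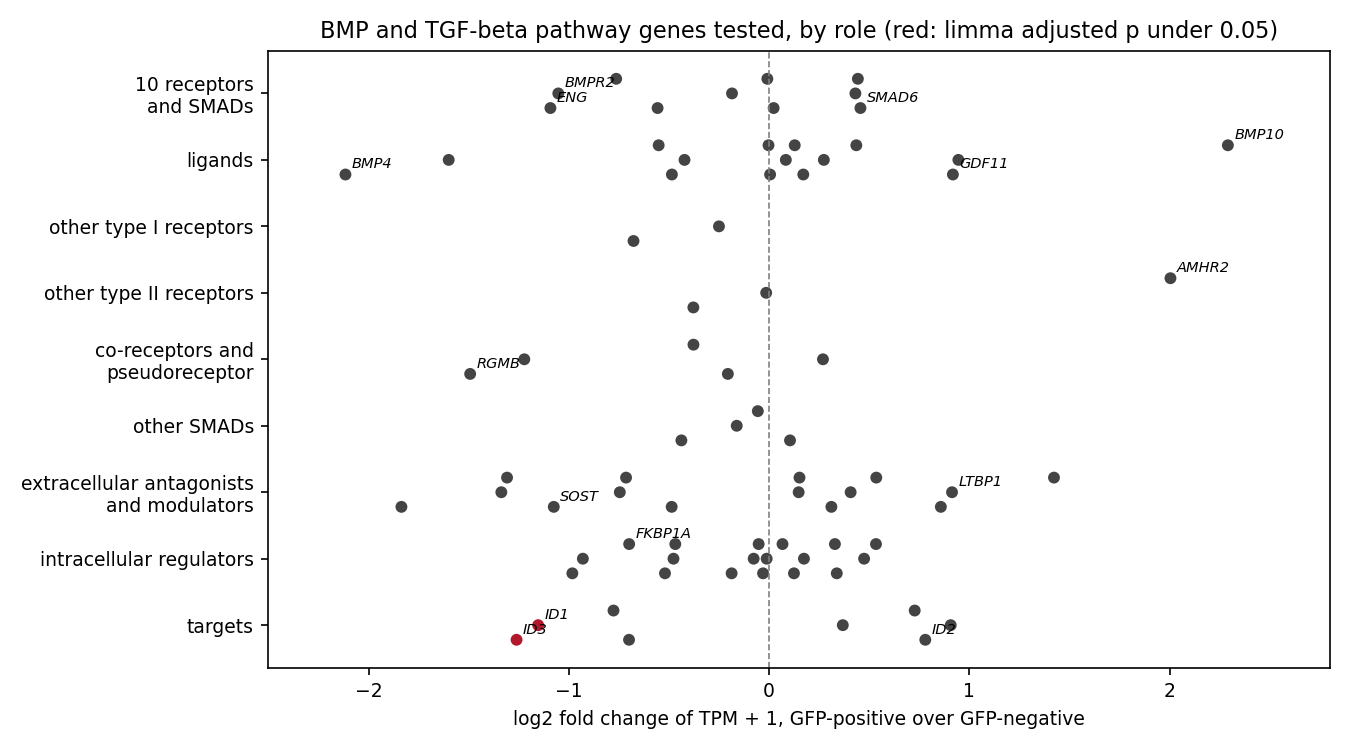
Log2 fold change of TPM + 1 (x axis, GFP-positive over GFP-negative) for the 10 receptors and SMADs and the 70 other pathway genes tested, in rows by role; 1 point is 1 gene, points are spread vertically for legibility, and red marks a limma adjusted p under 0.05. ID1 and ID3 are the red points, and BMP10 (2.29) and BMP4 (-2.12) lie at the ends.

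The genes with the most similar profiles were listed for ENG, ACVRL1 and SMAD6, by Euclidean distance between log2(TPM + 1) values centred on their mean over the 4 libraries, among 4093 genes with a mean of at least 50 TPM. Nearest to ENG were CSRP2, PLVAP and DOCK6, at distances of 0.096, 0.117 and 0.147. Nearest to ACVRL1 were TNFAIP1, SEC13 and TEK, at 0.078, 0.081 and 0.104; TEK encodes an angiopoietin receptor and had 109 and 98.6 TPM in GFP-positive libraries and 185 and 173 TPM in GFP-negative libraries. Nearest to SMAD6 were EPB41, KRR1 and SMTN, at 0.036, 0.072 and 0.077. With 4 libraries many genes share a profile, so these names are a description.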

How the data were processed

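The labels' protocols give Trizol for harvesting RNA and the Illumina TruSeq RNA kit for the libraries. The authors deposited 1 table per library with 28285 rows of TPM, a length-corrected share of the library. That unit rests on the values, which sum to 996323.64 to 997292.9 per library, and on RSEM, named together with Bowtie and the builds hg19 and mm10 in the submitters' processing notes. Their versions, the annotation and the use made of each build are not stated by any source used here. TPM keeps no read depth, so no counting error can be given, and PECAM1, the gene of CD31, is not analysed here.

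Groups and replicate numbers came from sample titles. Libraries were compared with limma 3.58.1 (R 4.3.3), fitted with a variance trend to log2(TPM + 1), a scale that understates changes of low genes. Genes needed 1 TPM or more in at least 2 of the 4 libraries, and two-sided p-values got a Benjamini-Hochberg adjustment over 15425 genes with a threshold of 0.05. The script was tested on simulated data. These had independent noise drawn from the fitted variances, so they do not show how reliable the calls are in these libraries. Where a symbol occurred more than once (87 rows repeated an earlier symbol), a gene name table decided which identifier was used. If that table did not decide, the row with the higher mean TPM was used. The other rows stayed among the genes under their identifiers. GENCODE 29, which held 89.7% of identifiers, gave coordinates on GRCh38, and RefSeq promoter windows (GRCh38.p14) were found by symbol for 9 of the 10 genes. The 10 genes, the lists and the tests were chosen with earlier results of these data known. Of the other pathway genes, those named were every one past the threshold, the 2 most abundant of each role, and the 5 highest and 5 lowest log2 fold changes among genes with a mean of at least 5 TPM, except for 1 gene that is not reported here; GDF2, SMAD9, ACVR1C and marker genes were named besides, after their values were seen. Alternatives were another pseudocount, other filters, no trend, other scalings, a block for the replicate number and leaving out single libraries. Plots were drawn with matplotlib 3.10.9.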

Additional observations from a re-analysis of the deposited data

How the results depend on the processing

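None of the 10 receptor and SMAD genes passed in limma under any alternative other than the replicate block. ENG, ACVRL1, BMPR2, TGFBR2, SMAD1, SMAD5 and SMAD6 kept the sign of their log2 fold change under each alternative run. SMAD7 came to -0.009 with upper quartile scaling and to -0.009 with median centring. With 1 library left out, the log2 fold change ran from -0.168 to 0.214 for SMAD7, from -1.048 to 0.678 for BMPR1A and from -0.208 to 0.191 for TGFBR1. The median over the 10 genes ran from -0.408 to 0.132, against -0.10 with all libraries. Over all genes, 69 passed; 0 passed with a pseudocount of 0.1, 0 with no filter on low values and 0 with no variance trend, and 164 passed with a mean of at least 5 TPM. Unadjusted p-values under 0.05 numbered 2101, 2230 and 2072 in the limma fits with 0 calls, against 2171. Leaving out 1 library gave 18 to 65 genes, the lowest without GFP-negative replicate 1 (17 higher and 1 lower, against 19 and 50 with all libraries). Of the other pathway genes 2 passed; 0 did with a pseudocount of 0.1, 0 with no filter, 0 with no trend and 4 with a mean of at least 5 TPM, and 0 to 1 with a library left out. The cause of these moves was not tested. The median log2 fold change of all genes lay between -0.01 and 0.04 in each fit.

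With the replicate number as a block, 596 genes passed, among them 2 of the receptors and SMADs, ENG (adjusted p = 0.0111) and ACVRL1 (adjusted p = 0.0319), and 8 other pathway genes. Deviations of same-numbered libraries from their group means had a correlation of 0.072 over 15425 genes. No label ties the number to a shared batch or excludes one, so whether same-numbered libraries form pairs cannot be decided here. With 2 libraries a group, and with TPM in place of counts, the precision of single genes is limited.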
